A study of Homo sapiens with 20 samples.

Results

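The data described here are the RNA levels of 9 genes for enzymes that release arachidonic acid from membranes and turn it into prostaglandins and other eicosanoids. They are *PLA2G4A*, *PLA2G4C*, *PTGS1*, *PTGS2*, *PTGES*, *PTGES2*, *HPGD*, *ALOX5* and *ALOXE3*, and they were found by Ensembl identifier among the 58233 genes of the deposited RNA-seq tables. The genes were chosen by family and selected on measured values, since *PLA2G4C* and *ALOXE3* were taken up because they rose after *ADAR* knockout (KO) in HCC366 cells. For that reason the HCC366 comparison is given as a description without a test.

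The study used 20 libraries in 10 conditions, with 2 libraries in each. Each library comes from a lung cancer line that carried Cas9 and 1 sgRNA, against *GFP* as the control or against *ADAR*, the gene for the RNA-editing enzyme ADAR1. HCC366 (lung adenosquamous carcinoma), NCI-H196 (variant small cell lung cancer) and NCI-H1650 (lung adenocarcinoma) were untreated. A549 (lung adenocarcinoma) was given vehicle or 10 ng/mL interferon-β (IFN-β) for 24 h with either target. All groups share lentiviral delivery of Cas9 and an sgRNA followed by drug selection, and whether clones were picked is not given in the sources used here. Harvest of the untreated lines is timed in the study from transduction, and that of A549 from the start of treatment. The time from transduction to harvest is not given for A549 and may differ from that of the other lines. Its part in the differences between lines was not tested. The 2 libraries of a condition are sg1 and sg2, which are different sgRNAs. Nothing in the labels says that they came from separate experiments, and the study's figure legend for these data reports no repeat. The p-values therefore measure only the spread between sgRNAs, which may be partly technical, and not replication between experiments.

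Eicosanoids are made in steps. Cytosolic phospholipases free arachidonate from phospholipids, cyclooxygenases convert it to the prostaglandin precursor PGH2, and terminal synthases such as those for PGE2 finish the product, which 15-hydroxyprostaglandin dehydrogenase later inactivates. Lipoxygenases compete for the same fatty acid, and inducible cyclooxygenase and microsomal PGE synthase are well known from inflamed and malignant lung epithelium.

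Depth limits much of what follows. Reads on genes ranged from 62679 to 19520189 per library with a median of 6411279, and per line they were between 7381566 and 19520189 in A549, 4178438 and 5440992 in NCI-H1650, 1116439 and 3440707 in HCC366, and 62679 and 9156750 in NCI-H196. A pair of libraries stood apart. NCI-H196 *GFP* sg2 held only 62679 reads, so that 1 read there is worth 15.95 CPM (the reads of a gene scaled by library size). Non-unique alignments made up 85.6% in HCC366 *ADAR* sg2 and 22.5% to 59.1% in the other 19 libraries, and the GC content and length of the genes accounted for 50.2% of the variance of its log2 ratio to the mean of the other libraries of the line. *ADAR* itself was 804 and 1101 CPM in HCC366 *GFP* sg1 and sg2 and 571 and 490 CPM in the *ADAR* libraries (log2 fold change −0.84, standard error (SE) 0.31, adjusted p = 0.208). It was 621 and 760 CPM against 296 and 268 CPM in NCI-H1650 (−1.29, SE 0.11, adjusted p = 6.63e-14), and 664 and 865 CPM against 564 and 482 CPM in NCI-H196 (−0.41, SE 0.11, adjusted p = 0.00165). In A549 it was 436 and 437 CPM against 161 and 250 CPM with vehicle (−1.08, SE 0.13, adjusted p = 9.98e-05) and 1219 and 1193 CPM against 691 and 895 CPM with IFN-β (−0.60, SE 0.13, adjusted p = 0.00148). *ADAR* RNA was thus lower with the *ADAR* sgRNAs in all 5 comparisons, with no overlap of libraries, although an sgRNA acts on the gene and need not lower its RNA. The NCI-H196 call was lost without *ADAR* sg1 (−0.59, adjusted p = 0.457) and without *ADAR* sg2 (−0.37, adjusted p = 0.979), and in HCC366 a call was made without *ADAR* sg1 (−0.98, adjusted p = 1.01e-05) or *ADAR* sg2 (−0.72, adjusted p = 0.00399). DESeq2 did not call it in NCI-H196 (adjusted p = 0.999) or A549 (adjusted p = 0.129 with vehicle and 0.0967 with IFN-β).

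The marker genes of the labelled tumour types were largely absent. *NKX2-1*, *NAPSA* and *SFTPB*, markers of lung adenocarcinoma, summed to 0.407 to 1.95 CPM in A549 and 1.76 to 3.84 CPM in NCI-H1650. In HCC366 the adenocarcinoma markers summed to 2.62 to 9.05 CPM and the squamous markers to 1.55 to 5.25 CPM. The neuroendocrine markers summed to 0 to 4.06 CPM in NCI-H196. Markers of other types were higher in NCI-H1650, with sums of 67.9 to 84.3 CPM for the squamous and 16.7 to 28.2 CPM for the neuroendocrine list. Squamous markers also summed to 15.8 to 58.6 CPM in NCI-H196, where the highest sum rests on 4 reads. Mesenchymal markers summed to 5145 to 5498 CPM in NCI-H196. Epithelial markers summed to 58.6 to 72.2 CPM in NCI-H196, where the 58.6 CPM rests on 4 reads, and to at least 1748 CPM in the other 3 lines. Each library is a culture of its labelled line, and in bulk RNA fewer cells with a marker and less RNA per cell cannot be told apart.

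In A549 cells *PTGS2* and *ALOXE3* rose with IFN-β where *ADAR* was the target, and *PTGES* fell with IFN-β with either target. The promoters of these 3 members are shown because these genes carry the results. They are RefSeq windows of GRCh38.p14, from 250 bases before to 50 after the annotated start, all read from the minus strand, at chr1:186680374-186680673 (*PTGS2*), chr9:129752993-129753292 (*PTGES*) and chr17:8118465-8118764 (*ALOXE3*, the second of its 3 windows, shown because it holds most matches). Capitals mark matches to 6 short motifs searched on both strands, of which the TATA box was searched on the coding strand only.
PTGS2 promoter: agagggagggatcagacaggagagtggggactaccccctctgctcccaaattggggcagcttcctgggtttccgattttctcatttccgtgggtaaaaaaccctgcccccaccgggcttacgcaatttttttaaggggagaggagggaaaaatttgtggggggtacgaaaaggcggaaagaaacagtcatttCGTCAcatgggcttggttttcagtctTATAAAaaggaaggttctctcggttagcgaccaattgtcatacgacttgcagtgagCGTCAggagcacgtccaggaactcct
PTGES promoter: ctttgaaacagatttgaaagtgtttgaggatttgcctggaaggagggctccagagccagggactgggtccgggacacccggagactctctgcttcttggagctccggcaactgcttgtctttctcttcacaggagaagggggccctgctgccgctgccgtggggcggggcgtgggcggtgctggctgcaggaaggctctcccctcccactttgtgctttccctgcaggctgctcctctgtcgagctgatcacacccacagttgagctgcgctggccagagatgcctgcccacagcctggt
ALOXE3 promoter: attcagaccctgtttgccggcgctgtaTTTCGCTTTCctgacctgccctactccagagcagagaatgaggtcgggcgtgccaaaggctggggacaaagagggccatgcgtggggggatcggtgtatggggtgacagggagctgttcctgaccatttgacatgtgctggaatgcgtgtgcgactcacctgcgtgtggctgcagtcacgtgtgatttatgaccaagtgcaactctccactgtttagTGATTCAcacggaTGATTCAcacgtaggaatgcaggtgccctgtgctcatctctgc
In the *PTGS2* window, CGTCA, the half-site of the cAMP response element, lay at −58 to −54 and at 25 to 29 from the start (base 1), and TATAAA, the TATA box, at −32 to −27. In the *ALOXE3* window, TGATTCA lay at −6 to 1 and at 8 to 14. It matches TGANTCA, the pattern searched here for AP-1. This pattern leaves the middle base open, so a match need not be a consensus AP-1 site. The same bases lie at −217 to −211 and −204 to −198 from the start of the first *ALOXE3* window, and the third window holds no match. TTTCGCTTTC, a match on the other strand to the core of the interferon-stimulated response element, lay at −223 to −214. The *PTGES* window held no match, and among the windows of the other 4 members with one, only a window of *HPGD* held one (CGTCA at −77 to −73). Of all 35116 windows of this length, 24.6% held CGTCA, 7.33% TATAAA, 7.71% TGANTCA, 3.57% that core, 1.85% the full cAMP response element TGACGTCA, which contains the half-site, and 3.62% TGATGNAA, the ATF4 composite motif. These matches are letters in a window and not sites of binding. Windows were listed for 7 of the 9 members, with none for *PLA2G4C* and *ALOX5*.

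In control cells the lines differed in which enzymes they expressed. Levels here are RPKM (the CPM per kilobase of merged exons), scaled over all 20 libraries, so that genes can be compared. All 8 members that could be tested differed between the 4 lines (edgeR quasi-likelihood F-test over the control conditions, adjusted p between 8.21e-21 and 3.95e-06), as did 80.6% of all genes tested. *HPGD*, with reads in A549 alone, and *PLA2G4A*, with no control read in HCC366 and NCI-H1650, passed the filter on low counts only through lines in which they are high. Their calls are therefore a description. *PTGES*, the inducible microsomal PGE synthase, had the highest RPKM of the 9 genes in 3 lines: 124 and 108 RPKM in NCI-H1650, 114 and 98.3 RPKM in HCC366, and 93.8 and 101 RPKM in A549. These 3 lines overlapped from one to the next. In NCI-H196 it was 0.719 and 5.53 RPKM, from 14 reads and 1 read, which was below every library of the others.

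*PTGS2*, the inducible cyclooxygenase, stood the other way between NCI-H196 and the other lines. It was 34.9 and 19.1 RPKM in NCI-H196, where it led the 9 genes, and 0.437 and 0.756 RPKM in A549. HCC366 had 0.1303 and 0.0488 RPKM and NCI-H1650 0.0360 and 0.0763 RPKM, which rest on 1 to 2 reads per library and overlap. The control cells with the most *PTGS2* RNA therefore had the least *PTGES* RNA. *PTGES2*, the other membrane-associated PGE synthase, was present in every line, with 24.8 and 23.4 RPKM in A549, 12.3 and 9.46 RPKM in HCC366, 8.04 and 8.87 RPKM in NCI-H1650 and 4.47 and 6.88 RPKM in NCI-H196, and neighbouring lines did not overlap. The 6.88 RPKM rests on 4 reads, so that library does not separate NCI-H196 from NCI-H1650.

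The remaining control levels were lower. *PLA2G4A*, the calcium-dependent cytosolic phospholipase A2 that prefers arachidonate, was 6.66 and 7.49 RPKM in A549 and 2.50 and 0 RPKM in NCI-H196, and it had no read in the control libraries of HCC366 and NCI-H1650. *HPGD*, the prostaglandin-inactivating dehydrogenase, was 8.41 and 6.73 RPKM in A549. It had 0 reads in all 12 libraries of the other lines, where 3 reads would be 0.328 to 47.9 CPM, so the shallowest library could not have shown a level like that of A549. *ALOXE3*, an epidermis-type lipoxygenase that isomerizes hydroperoxides to hepoxilins, followed the order NCI-H1650 (7.29 and 4.17 RPKM), HCC366 (2.09 and 1.07 RPKM), A549 (0.467 and 0.309 RPKM) and NCI-H196 (0.439 and 0 RPKM). Its last neighbours overlapped and the others did not. *PLA2G4C*, the calcium-independent cytosolic phospholipase A2, was 1.70 and 1.46 RPKM in NCI-H1650, 0.757 and 0.931 RPKM in HCC366, 1.20 and 0 RPKM in NCI-H196 and 0.338 and 0.289 RPKM in A549, and only NCI-H1650 and HCC366 among these neighbours did not overlap. *PTGS1*, the constitutive cyclooxygenase, stayed between 0 and 0.755 RPKM, and *ALOX5*, the first enzyme of leukotriene synthesis, between 0 and 0.0718 RPKM. With DESeq2's likelihood ratio test on the control libraries, *PLA2G4A* (adjusted p = 0.313), *PLA2G4C* (0.275) and *PTGS1* (0.550) were not called.

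**Figure D1:**
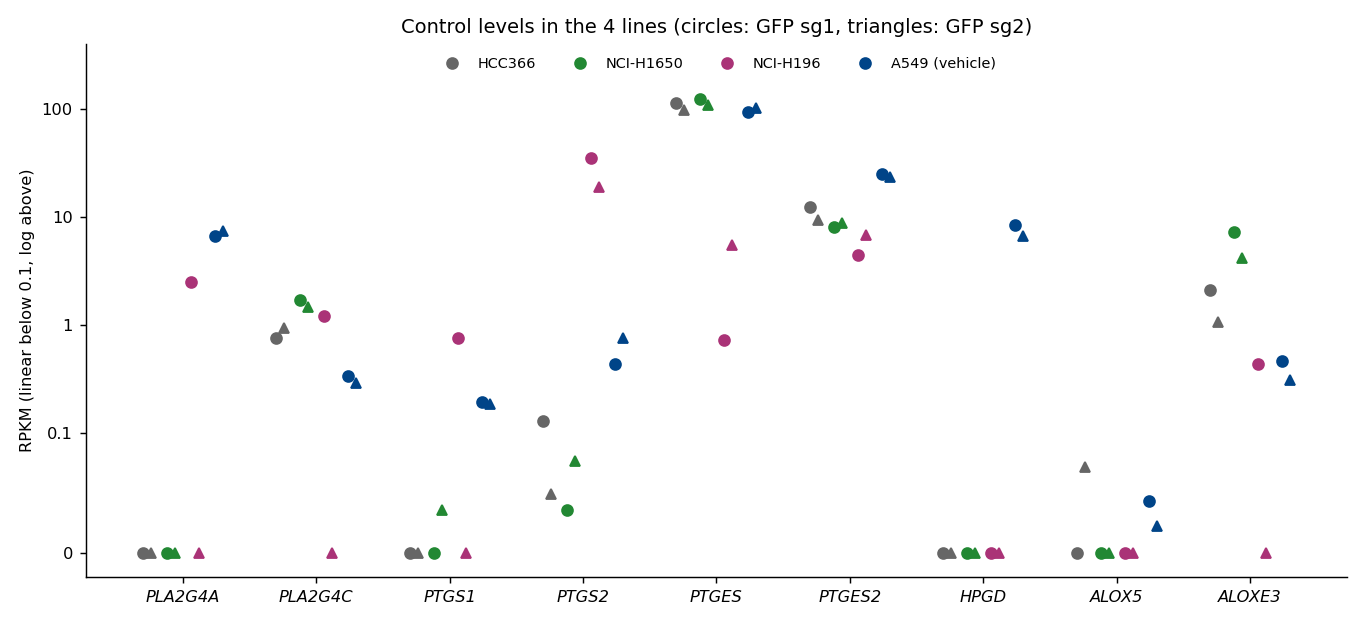
RPKM (linear below 0.1, log scale above) of the 9 genes in the 8 control libraries, with colour for the line, circles for *GFP* sg1 and triangles for *GFP* sg2. *PTGES* lies at 93.8 to 124 RPKM in 3 lines and at 0.719 and 5.53 RPKM in NCI-H196, where *PTGS2* reaches 34.9 and 19.1 RPKM.

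*ADAR* KO was compared with *GFP* in each line to ask which of these enzymes respond to loss of ADAR1. *PLA2G4C*, *PTGS2* and *ALOXE3* were the members that rose, each in some of the comparisons. No member passed the test as lower with *ADAR* KO in the main fits. In NCI-H1650, 2 of the 4 members tested were called (*PLA2G4C* and *ALOXE3*, both higher), where 8.60% of all genes tested were called. In NCI-H196 it was 2 of 6 (*PLA2G4C* and *PTGS2*, both higher) against 17.8% of all genes. In A549 with vehicle, 0 of 8 members were called against 0.123% of all genes by edgeR, 2 had an unadjusted p below the threshold of 0.05 (*PLA2G4A* and *PTGS2*, both lower), and DESeq2 called 0. In A549 with IFN-β, 3 of 8 were called (*PLA2G4C*, *PTGS2* and *ALOXE3*, all higher) against 17% of all genes. The median log2 fold change of the members tested was 0.54 in NCI-H1650, 0.58 in NCI-H196, −0.01 in A549 with vehicle and 0.24 in A549 with IFN-β, beside 0.01, −0.0039, 0.00 and −0.01 for all genes tested, in the same order. Members that passed the filter on low counts only through the condition in which they are high weigh on these medians. *PLA2G4C* and *ALOXE3* were chosen for their rise with *ADAR* KO in HCC366, so the members are not an unselected set. The counts and medians here and in the A549 comparisons below are a description, and nothing is read from them about the family.

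In HCC366, whose values chose *PLA2G4C* and *ALOXE3*, the members that passed the threshold of the fit across all genes, 2 of 4, were these same genes. The threshold was passed by 1.25% of all genes, and nothing is read from the count, which the choice of genes fixed. *PLA2G4C* was 5.42 and 6.59 CPM with *GFP* sg1 and sg2 and 62.1 and 94.4 CPM with *ADAR* sg1 and sg2, a log2 fold change of 3.66 (SE 0.43). *ALOXE3* was 8.52 and 4.30 CPM with *GFP* and 80.5 and 146 CPM with *ADAR*, a log2 fold change of 4.26 (SE 0.52). All *ADAR* libraries lay above all *GFP* libraries for both genes, and *ADAR* sg2, the library with most non-unique alignments, was the higher. Without that library the log2 fold changes were 3.32 for *PLA2G4C* and 3.87 for *ALOXE3*. With each library left out in turn they ranged from 3.32 to 3.89 and from 3.72 to 4.69. Just outside the choice, *PTGES2* moved by 0.30 (SE 0.40, −0.16 without *ADAR* sg2 and −0.20 with GC and length offsets), from 81.3 and 61.6 CPM to 61.2 and 113 CPM. *PTGES* moved by −0.46 (SE 0.31), from 233 and 199 CPM to 162 and 153 CPM, and by −0.81 with the offsets and −0.51 without *ADAR* sg1, where it passed the threshold as lower. *PTGES2* passed it as higher without *ADAR* sg1 (0.68). The other 5 members were below the filter, with 0 to 4 reads in each library. Markers of leukocytes and platelets, which also make eicosanoids, summed to 10.1 to 14.6 CPM with *GFP* and 39.4 to 55.6 CPM with *ADAR* in this line. Nearly all of it was *ITGAM* (6.30 to 54.3 CPM) and *CD14*, while *CD3E*, *PF4* and *PPBP* had 0 reads in all 4 libraries and *PTPRC* had 1 read in all. The same markers summed to 8.83 to 11.5 CPM in A549 *ADAR* cells with IFN-β against 4.97 to 5.78 CPM in *GFP* cells with IFN-β, to 10.8 to 19.3 CPM against 0 to 5.91 CPM in NCI-H196 and to 4.70 to 5.39 CPM against 2.21 to 5.02 CPM in NCI-H1650. The sums were thus higher with *ADAR* where *PLA2G4C* was higher, with overlap in NCI-H1650, and their part in the results was not tested.

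**Figure D2:**
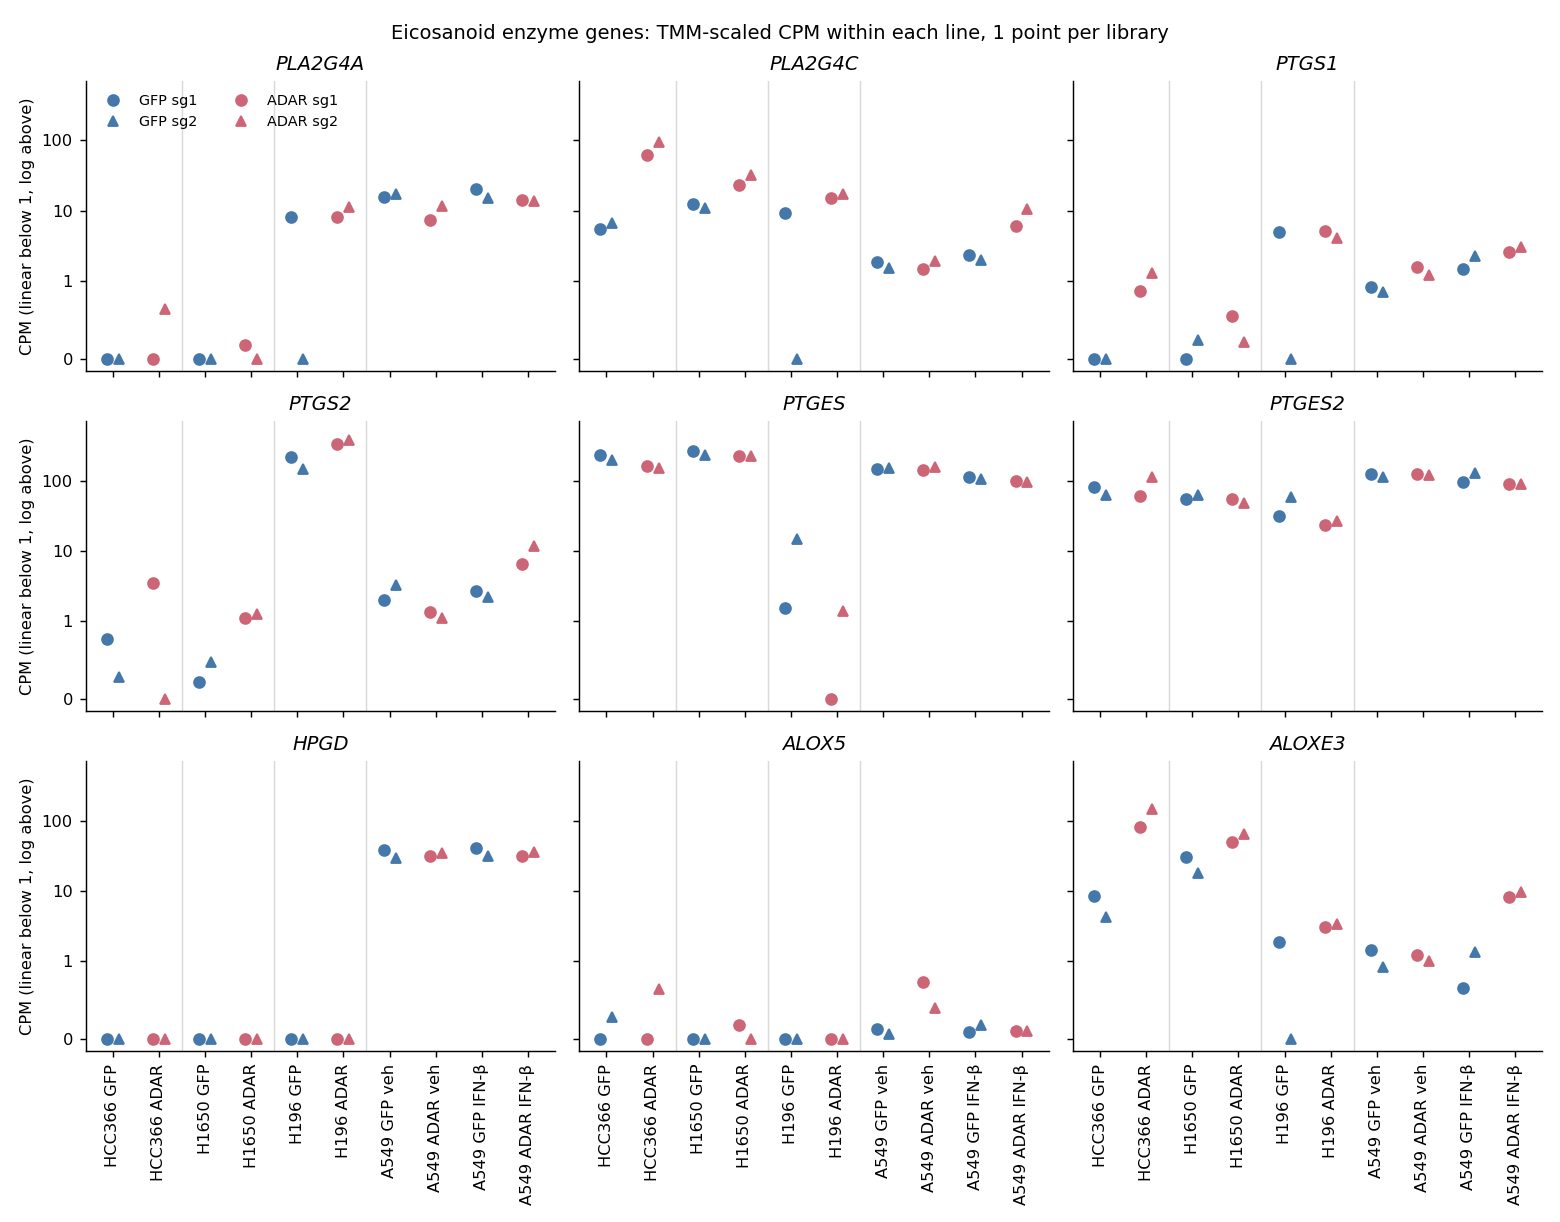
CPM (linear below 1, log scale above), scaled within each line, of each of the 9 genes in the 20 libraries, with blue for *GFP*, red for *ADAR*, circles for sg1 and triangles for sg2. *PLA2G4C* and *ALOXE3* are higher with *ADAR* in HCC366 and NCI-H1650 and, in A549, only with IFN-β, where the *ADAR* libraries have 6.10 and 10.7 CPM of *PLA2G4C* and 8.09 and 9.64 CPM of *ALOXE3*. *HPGD* has reads in A549 alone.

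Of the phospholipases, *PLA2G4C* rose in NCI-H1650, NCI-H196 and IFN-β-treated A549 cells. In NCI-H1650 it was 12.6 and 10.99 CPM with *GFP* and 23.2 and 32.0 CPM with *ADAR*, a log2 fold change of 1.22 (SE 0.20, adjusted p = 8.18e-06). The groups did not overlap, and the change stayed between 0.96 and 1.43 when each library was left out in turn, with adjusted p of at most 0.0235 under every alternative run. In NCI-H196 it was 9.14 CPM (82 reads) and 0 CPM (0 reads) with *GFP* and 15.2 and 17.2 CPM with *ADAR* (0.90, SE 0.24, adjusted p = 0.00248). A count of 0 in *GFP* sg2 allows up to 47.9 CPM, so this library does not separate the groups, and without it the change was 0.88 (adjusted p = 0.000813). The call was lost without *ADAR* sg2 (0.75, adjusted p = 0.973), and without *GFP* sg1 only the library with 0 reads remained as control. It was also lost in the fit of all 20 libraries (adjusted p = 0.410) and in DESeq2 (adjusted p = 1 without independent filtering).

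In A549 cells *PLA2G4C* was low with vehicle, with 1.85 and 1.53 CPM for *GFP* and 1.46 and 1.93 CPM for *ADAR*, which overlapped (0.05, SE 0.44, adjusted p = 0.998). With IFN-β it was 2.34 and 1.99 CPM for *GFP* and 6.10 and 10.7 CPM for *ADAR*, a log2 fold change of 1.99 (SE 0.33, adjusted p = 6.28e-05). Both *ADAR* libraries with IFN-β were above the other 6 A549 libraries, and the change was 1.4997 to 2.31 with each library left out, with the call kept. The other phospholipase, *PLA2G4A*, did not pass the test in any comparison of *ADAR* with *GFP*. It was 15.8 and 17.3 CPM with *GFP* and 7.44 and 11.7 CPM with *ADAR* in vehicle-treated A549 cells (−0.78, SE 0.22, adjusted p = 0.497), and 20.1 and 15.03 CPM against 14.2 and 13.7 CPM with IFN-β (−0.32, SE 0.20, adjusted p = 0.292). In NCI-H196 it was 8.25 and 0 CPM against 8.12 and 11.3 CPM (0.41, SE 0.27, adjusted p = 0.317). The *ADAR* libraries of A549 were below the *GFP* libraries in both treatments, but neither difference passed the test.

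Of the cyclooxygenases, *PTGS2* rose in NCI-H196 and in A549 cells with IFN-β. In NCI-H196, the line with most of its RNA, it was 220 CPM (1970 reads) and 147 CPM (10 reads) with *GFP* and 336 and 382 CPM with *ADAR* (0.76, SE 0.11, adjusted p = 9.49e-11). Both *ADAR* libraries were above both *GFP* libraries. Without *GFP* sg2, which has 10 of these reads, the change was 0.73 (adjusted p = 3.895e-15), but the call was lost without *GFP* sg1 (1.335, adjusted p = 0.0824), without *ADAR* sg1 (0.91, adjusted p = 0.0526) and without *ADAR* sg2 (0.72, adjusted p = 0.514). The fit of all 20 libraries (0.78, adjusted p = 0.201) and DESeq2 (0.84, adjusted p = 0.772) did not call it either. In NCI-H1650 and HCC366 *PTGS2* had 0 to 6 reads per library and was not tested.

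In A549 cells *PTGS2* was 1.98 and 3.32 CPM with *GFP* and 1.34 and 1.12 CPM with *ADAR* after vehicle (−1.18, SE 0.44, adjusted p = 0.998). After IFN-β it was 2.72 and 2.17 CPM with *GFP* and 6.41 and 11.7 CPM with *ADAR* (1.93, SE 0.33, adjusted p = 8.68e-05). The *ADAR* libraries were thus the lowest of the 8 with vehicle and the highest with IFN-β. Without *ADAR* sg2 with IFN-β, the change was 1.40 and the call was lost (adjusted p = 0.0587). *PTGS1* had 7 to 58 reads per A549 library and no call, with 0.65 (SE 0.53, adjusted p = 0.998) after vehicle and 0.58 (SE 0.40, adjusted p = 0.346) after IFN-β. In NCI-H196 it was −0.23 (SE 0.37, adjusted p = 0.737).

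The PGE synthases and *HPGD* moved little with *ADAR* KO. *PTGES* was 262 and 234 CPM with *GFP* and 226 and 223 CPM with *ADAR* in NCI-H1650 (−0.14, SE 0.10, adjusted p = 0.449). In A549 it was 146 and 153 CPM against 143 and 154 CPM with vehicle (−0.01, SE 0.10, adjusted p = 0.998) and 112 and 106 CPM against 99.1 and 94.3 CPM with IFN-β (−0.17, SE 0.10, adjusted p = 0.263). The libraries overlapped with vehicle and not with IFN-β or in NCI-H1650. *PTGES2* had log2 fold changes of −0.17 (SE 0.13, adjusted p = 0.484) in NCI-H1650, −0.29 (SE 0.18, adjusted p = 0.275) in NCI-H196 and 0.04 (SE 0.12, adjusted p = 0.998) in A549 with vehicle. In A549 with IFN-β it was 95.5 and 126 CPM with *GFP* and 89.5 and 88.6 CPM with *ADAR* (−0.32, SE 0.12, adjusted p = 0.0527), and the call was made without *GFP* sg1 with IFN-β (−0.50, adjusted p = 0.0008385). *HPGD* stayed between 29.8 and 40.3 CPM in all 8 A549 libraries, with −0.01 (SE 0.16, adjusted p = 0.999) after vehicle and −0.10 (SE 0.15, adjusted p = 0.677) after IFN-β.

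Of the lipoxygenases, *ALOXE3* rose in NCI-H1650 and in IFN-β-treated A549 cells. In NCI-H1650 it was 30.7 and 17.9 CPM with *GFP* and 49.4 and 65.3 CPM with *ADAR* (1.22, SE 0.17, adjusted p = 1.97e-07). The groups did not overlap, and the change was between 0.87 and 1.68 with each library left out. In A549 it was 1.45 and 0.930 CPM against 1.22 and 1.02 CPM with vehicle (−0.02, SE 0.51, adjusted p = 0.999) and 0.656 and 1.37 CPM against 8.09 and 9.64 CPM with IFN-β. The latter is a log2 fold change of 3.06 (SE 0.37, adjusted p = 4.29e-07) and the largest with *ADAR* KO among the members in the lines other than HCC366. It stayed between 2.70 and 3.75 with each library left out. In NCI-H196 *ALOXE3* had 17 and 0 reads with *GFP* and 3 and 27 with *ADAR* (0.82, SE 0.49, adjusted p = 0.261). *ALOX5* had 0 to 6 reads in every library and could not be tested in any comparison.

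**Figure D3:**
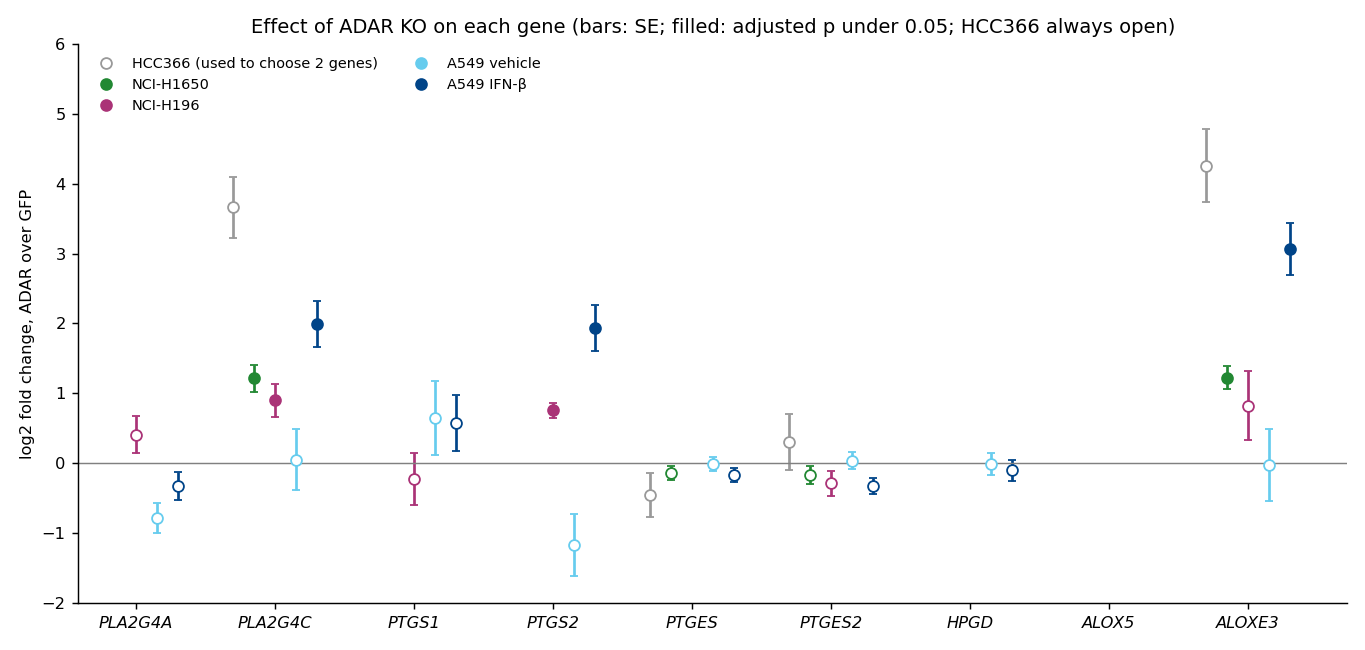
Log2 fold change of *ADAR* over *GFP* with its SE for each member in each line that passed the filter on low counts, with filled points for adjusted p under 0.05 (HCC366 points are drawn hollow, as that comparison chose 2 of the genes). *ALOXE3* and *PLA2G4C* lie at 3.06 and 1.99 in A549 with IFN-β and near 0 in A549 with vehicle.

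IFN-β was compared with vehicle in A549 cells of each target. The comparisons in A549 share libraries (each condition enters several), so their values are given side by side. In *GFP* cells 1 of 8 members was called, lower, against 5.70% of all genes. In *ADAR* cells 5 of 8 were called, 3 higher and 2 lower, against 24.5% of all genes. Of these 8, *PTGES* alone passed the test in the cells with *GFP* sgRNAs, while the cells with *ADAR* sgRNAs showed higher *PLA2G4C*, *PTGS2* and *ALOXE3* and lower *PTGES* and *PTGES2*. The median log2 change of the members was −0.01 in *GFP* cells and 0.78 in *ADAR* cells, beside 0.00 for all genes in both.

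*PTGES* fell with IFN-β in both. The log2 change was −0.46 in *GFP* cells (SE 0.10, adjusted p = 0.00261), from 146 and 153 CPM to 112 and 106 CPM, and −0.62 in *ADAR* cells (SE 0.10, adjusted p = 2.58e-05), from 143 and 154 CPM to 99.1 and 94.3 CPM. No library with IFN-β reached a library with vehicle. The call in *GFP* cells was lost without *GFP* sg2 with vehicle (−0.42, adjusted p = 0.0995) and in the fit of all 20 libraries (adjusted p = 0.216). *PTGES2* fell in *ADAR* cells by 0.46 on the log2 scale (SE 0.12, adjusted p = 0.00414), from 122 CPM in each library to 89.5 and 88.6 CPM, and moved by −0.10 (SE 0.12, adjusted p = 0.783) in *GFP* cells. In the fit of all 20 libraries the *PTGES2* call was lost (adjusted p = 0.0774).

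The genes that rose with IFN-β did so in *ADAR* cells. There *PTGS2* rose by 2.91 on the log2 scale (SE 0.39, adjusted p = 8.71e-07), *ALOXE3* by 2.99 (SE 0.40, adjusted p = 7.55e-07) and *PLA2G4C* by 2.32 (SE 0.36, adjusted p = 1.2e-05). In *GFP* cells the same genes moved by −0.20 (SE 0.37), −0.09 (SE 0.48) and 0.38 (SE 0.40), with adjusted p of 0.883, 0.967 and 0.749. These 3 calls in *ADAR* cells held with each library left out, over ranges of 2.37 to 3.24 for *PTGS2*, 2.84 to 3.13 for *ALOXE3* and 1.82 to 2.63 for *PLA2G4C*. *PTGS1* moved by 1.09 (SE 0.48, adjusted p = 0.247) in *GFP* cells and 1.03 (SE 0.44, adjusted p = 0.0926) in *ADAR* cells, from 7 and 13 reads to 16 and 36 and from 13 and 12 reads to 25 and 58. *PLA2G4A* moved by 0.53 (SE 0.22, adjusted p = 0.0792) in *ADAR* cells and was called without *ADAR* sg2 with vehicle (0.91, adjusted p = 0.0241).

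**Figure D4:**
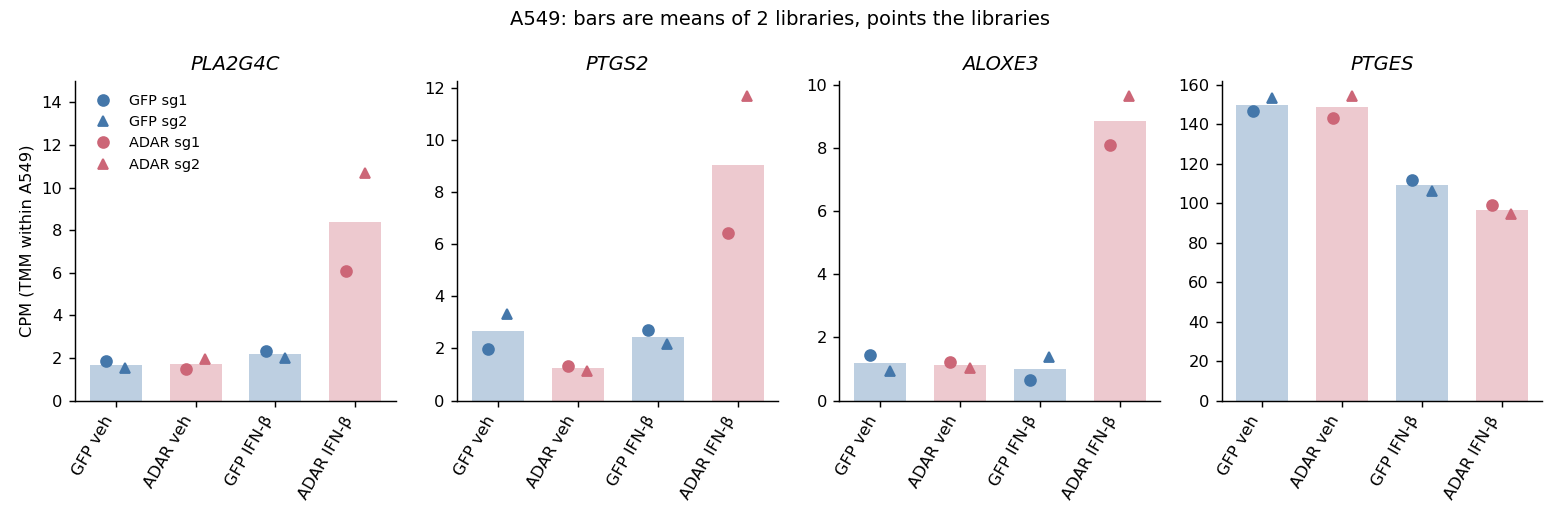
CPM of *PLA2G4C*, *PTGS2*, *ALOXE3* and *PTGES* in the 4 A549 conditions, with bars for the mean of 2 libraries, circles for sg1 and triangles for sg2, and axes from 0. The first 3 genes are highest in the *ADAR* libraries with IFN-β (6.10 to 11.7 CPM), and *PTGES* is lower in both IFN-β conditions (94.3 to 112 CPM) than with vehicle (143 to 154 CPM).

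The difference between the *ADAR* effect with IFN-β and with vehicle was tested directly as an interaction. It was called for 3 of 8 members, all with a higher log2 fold change with IFN-β, against 5.05% of all genes. The log2 difference was 3.11 for *PTGS2* (SE 0.55, adjusted p = 0.000448), 3.08 for *ALOXE3* (SE 0.64, adjusted p = 0.0027) and 1.94 for *PLA2G4C* (SE 0.55, adjusted p = 0.0365). For *PTGS2* and *ALOXE3* the call held with each library left out, with ranges of 2.57 to 3.45 and 2.72 to 3.76. For *PLA2G4C* it was lost without *GFP* vehicle sg1 (1.83, adjusted p = 0.0895), *GFP* vehicle sg2 (2.10, 0.113), *GFP* IFN-β sg2 (1.82, 0.0955), *ADAR* vehicle sg1 (1.77, 0.1205), *ADAR* vehicle sg2 (2.17, 0.0616) or *ADAR* IFN-β sg2 (1.45, 0.369). It was also lost in the fit of all 20 libraries (adjusted p = 0.0808) and in DESeq2 without independent filtering (adjusted p = 0.193). The 8 libraries held 12 to 205 reads of *PLA2G4C*, 11 to 224 of *PTGS2* and 7 to 185 of *ALOXE3*. With *ADAR* and vehicle each library had 11 reads of *PTGS2* and 10 of *ALOXE3*. The interaction was −0.36 for *PTGES2* (SE 0.16, adjusted p = 0.228), −0.16 for *PTGES* (SE 0.14, adjusted p = 0.611), 0.46 for *PLA2G4A* (SE 0.30, adjusted p = 0.437), −0.07 for *PTGS1* (SE 0.64, adjusted p = 0.978) and −0.09 for *HPGD* (SE 0.22, adjusted p = 0.875). Without *GFP* IFN-β sg1 that of *PTGES2* was −0.54 (adjusted p = 0.0109).

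The other genes of arachidonate metabolism were 64 in 6 lists. With *ADAR* KO, 2 of 35 tested were called in NCI-H1650 (both higher), against 8.60% of all genes. The count was 6 of 34 in NCI-H196 (3 higher and 3 lower) against 17.8%, and in A549 with IFN-β 8 of 34 (2 higher and 6 lower) against 17%. In A549 with vehicle it was 0 of 34 by edgeR, with 2 at an unadjusted p under 0.05, against 0.123%, where DESeq2 called 4 of all genes. With IFN-β, 2 of 34 were called in *GFP* cells (both higher) against 5.70%, and 9 of 34 in *ADAR* cells (3 higher and 6 lower) against 24.5%. The interaction was called for 3 of 34 against 5.05%, and in HCC366 1 of 27 passed against 1.25%. Most of these shares are near those of all genes, so the counts are not a result about the lists. The lists' median log2 change lay between −0.15 and 0.11 in these 8 comparisons.

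*DAGLB*, the lipase that makes 2-arachidonoylglycerol from diacylglycerol, was the listed gene called with *ADAR* KO in the most comparisons. With IFN-β in A549 it was 27.9 and 29.6 CPM for *GFP* and 49.2 and 59.95 CPM for *ADAR* (0.93, SE 0.13, adjusted p = 8.34e-06), and this call held with each library left out. In NCI-H1650 it was 107 and 90.5 CPM against 151 and 150 CPM (0.61, SE 0.11, adjusted p = 7.93e-05), lost without *GFP* sg2 (0.47, adjusted p = 0.0668), and in NCI-H196 56.4 and 58.6 CPM against 76.1 and 90.2 CPM (0.63, SE 0.13, adjusted p = 4.42e-05). In the shallow NCI-H196 *GFP* sg2 library 58.6 CPM is 4 reads. *PTGER4*, the EP4 receptor for PGE2, rose in NCI-H1650 from 18.3 and 12.9 CPM to 26.0 and 29.9 CPM (0.83, SE 0.18, adjusted p = 0.0014), a call lost without *GFP* sg2 (0.58, adjusted p = 0.134). In NCI-H196 *GGT5*, which cleaves leukotriene C4 (1.57), and *MBOAT7*, which puts arachidonate into phosphatidylinositol (0.45), were also higher, and *PTGR2*, a prostaglandin reductase (−1.08), *AKR1C3* (−0.61) and *LTA4H* (−0.40, chosen after its values were seen) were lower. Of the 6 calls in NCI-H196, DESeq2 without independent filtering made none. None of the 6 held without *ADAR* sg2 (adjusted p of 0.565 to 0.998) or without *GFP* sg1, where *GGT5* (−0.51) and *AKR1C3* (0.0091) turned direction, and only *GGT5* held without *ADAR* sg1. In HCC366 the gene that passed was *PLA2G6* (2.72, SE 0.53), a calcium-independent phospholipase A2 named here after its values were seen.

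In A549, *AKR1C3*, an aldo-keto reductase that makes F-type prostaglandins, was lowest with *ADAR* KO and IFN-β together. It was 899 and 815 CPM in *GFP* cells with vehicle, 758 and 785 CPM in *GFP* cells with IFN-β, 828 and 920 CPM in *ADAR* cells with vehicle and 512 and 434 CPM in *ADAR* cells with IFN-β. The log2 change with *ADAR* KO under IFN-β was −0.71 (SE 0.10, adjusted p = 7.5e-06), with IFN-β in *ADAR* cells −0.89 (SE 0.10, adjusted p = 5.72e-08) and the interaction −0.74 (SE 0.14, adjusted p = 0.00141). These 3 calls held with each library left out, though reads can be split between *AKR1C3* and its close paralogs. *CBR1*, a carbonyl reductase that acts on PGE2, moved in both directions. It was higher with IFN-β in *GFP* cells (0.40, SE 0.12, adjusted p = 0.0399), a call lost without *GFP* vehicle sg1 (0.33, 0.409) or sg2 (0.48, 0.139), *GFP* IFN-β sg2 (0.31, 0.201) or *ADAR* vehicle sg1 (0.41, 0.0584) or sg2 (0.41, 0.0573). It was lower with *ADAR* KO under IFN-β (−0.54, SE 0.12, adjusted p = 0.00164), lost without *ADAR* IFN-β sg2 (−0.46, adjusted p = 0.0792). *CYP2J2*, an arachidonate epoxygenase, rose with IFN-β from 3 and 2 reads to 51 and 51 reads in *GFP* cells (4.06, SE 0.61, adjusted p = 1.2e-05) and from 3 and 0 reads to 42 and 89 reads in *ADAR* cells (4.68, SE 0.66, adjusted p = 2.1e-06), a fold that rests on 0 to 3 reads per library with vehicle. *CYP2J2* passed the filter on low counts only through the IFN-β libraries in which it is high, so its calls are a description. Both calls held with each library left out, over 3.28 to 4.77 in *GFP* cells. In *ADAR* cells the value was 3.60 without *ADAR* vehicle sg2, and without *ADAR* vehicle sg1 only a library with 0 reads remained as the reference, so no fold is given.

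Most other listed genes with calls in A549 were lower. With *ADAR* KO under IFN-β these were *CYP4F3*, a leukotriene B4 hydroxylase (−1.17, SE 0.23, adjusted p = 0.000645), *CYP4F11*, a fatty acid hydroxylase (−0.50, SE 0.14, adjusted p = 0.0109), and *EPHX1*, the microsomal epoxide hydrolase (−0.30, SE 0.10, adjusted p = 0.0371). Without *GFP* IFN-β sg2 the changes were −0.79 (adjusted p = 0.0594), −0.32 (0.177) and −0.29 (0.0865), and all 3 calls were lost. Without *ADAR* IFN-β sg2 the calls of *CYP4F11* (−0.36, 0.271) and *EPHX1* (−0.23, 0.369) were lost, and that of *EPHX1* also without either *GFP* or *ADAR* library with vehicle (−0.30 to −0.29, adjusted p of 0.0658 to 0.0761). Reads of the CYP4F genes can be split between close paralogs. *PLAAT3* (−0.49, adjusted p = 0.0311) and *ACSL4* (0.31, adjusted p = 0.0397), named after their values were seen, lost their calls without *GFP* IFN-β sg2 (−0.30 and 0.21, adjusted p = 0.327 and 0.259) or *ADAR* IFN-β sg2 (−0.38 and 0.25, adjusted p = 0.353 and 0.351), and *ACSL4* also without any 1 library with vehicle (0.31 to 0.32, adjusted p of 0.0622 to 0.0675). With IFN-β in *ADAR* cells *ABCC4*, an exporter of prostaglandins, fell by 0.41 on the log2 scale (SE 0.11, adjusted p = 0.00647), lost without *ADAR* vehicle sg2 (−0.38, adjusted p = 0.0917). The other calls with IFN-β in *ADAR* cells (*DAGLB* and *GGT5* higher, *EPHX1*, *CYP4F3*, *PRXL2B* and *LTA4H* lower, the last and *PRXL2B* named after their values were seen) were each lost without *ADAR* vehicle sg2 or *ADAR* IFN-β sg2, at adjusted p of 0.0541 to 0.464.

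Over the 20 libraries, with each line centred on its own mean, the genes most like each rising member in log2 CPM were found by Pearson's r as a description over 19522 genes. For *PTGS2* they were *WTAP* (0.892), *SRGAP1* (0.888) and *ZNF619* (0.878), for *PLA2G4C* *RPL12P14* (0.978), *AREG* (0.976) and *KLF5* (0.973), and for *ALOXE3* *ARID5B* (0.971), *MAP2K3* (0.968) and *SESN2* (0.965). These libraries share lines, depth and treatments, and the values for *PLA2G4C* and *ALOXE3* include the HCC366 libraries that chose them.

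The genes lie apart in the genome (GRCh37): *PTGS2* (ENSG00000073756) at chr1:186640923-186650054 and *PLA2G4A* (ENSG00000116711) at chr1:186798081-186958113 are neighbours on chromosome 1, *PLA2G4C* (ENSG00000105499) is at chr19:48551100-48614074 and *ALOXE3* (ENSG00000179148) at chr17:7999218-8022365. *PTGS1* (ENSG00000095303) at chr9:125132809-125157982, *PTGES2* (ENSG00000148334) at chr9:130882972-130890741 and *PTGES* (ENSG00000148344) at chr9:132500610-132515321 share chromosome 9, and *HPGD* (ENSG00000164120) is at chr4:175411326-175444305 and *ALOX5* (ENSG00000012779) at chr10:45869624-45941567. The reads are counts over all exons of a gene and do not separate isoforms. Antisense transcripts share exon bases with 3 members, and they had few reads of their own: *PACERR* with *PTGS2* (219 bases, 88 reads in all against 5816), *PLA2G4C-AS1* with *PLA2G4C* (326 bases, 5 reads against 1247) and an unnamed transcript with *HPGD* (314 bases, 3 reads against 3260).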

How the data were processed

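The authors isolated rRNA-depleted RNA from 20 cultures, made strand-specific paired-end libraries, aligned them with STAR to hg19 and counted with HTSeq, per the labels and the study's methods. Versions, the annotation release and the strand setting are not given in the sources used here. The values deposited by the authors are raw read counts per Ensembl gene, 1 table per library. The HTSeq summary lines, 51.3% to 93.3% of all counts in a library, name no gene and were left out. Symbols were matched for 55727 of 58233 identifiers (97.4% of reads) and merged exon lengths for RPKM came from GENCODE v44 lifted to GRCh37.

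The main tool was edgeR 4.0.16 with limma 3.58.1, run in R 4.3.3: filterByExpr by condition, TMM scaling within each line, and the quasi-likelihood F-test, with 1 fit for each of HCC366, NCI-H1650 and NCI-H196 and 1 for the 8 A549 libraries. Control levels were tested in a fit of all 20. P-values were adjusted over all genes tested by the Benjamini-Hochberg method (threshold 0.05), and the SE is the log2 fold change divided by the square root of F. The prior count was 0.125 for fold changes and 2 for log2 CPM. DESeq2 1.42.0, other scalings and filters, the replicate block and leaving out each library were alternatives. The code was tested on simulated data. No pair of libraries was identical. A count of 0 was taken to allow up to 3 reads, which, like each depth, covers counting error only. In A549 each sgRNA was used with vehicle and with IFN-β, a pairing that the main fits left out. Correlations of the deviations by sgRNA number were −0.253 to −0.00477 over the comparisons. With each sgRNA as block, the same members were called for IFN-β and for the interaction. The members and lists were chosen with earlier results of these data known. Listed genes were named by adjusted p outside HCC366, the first 12 of 16 called. Promoters are RefSeq windows of GRCh38.p14 (13 windows for 7 members), which were not lifted to the build of the counts.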

Additional observations from a re-analysis of the deposited data

Results flagged for a closer look

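In A549 cells the effect of *ADAR* KO differed between IFN-β and vehicle for 6 of the genes described, by the test of the difference itself in edgeR with Benjamini-Hochberg adjustment. The log2 difference (IFN-β minus vehicle) was 3.11 for *PTGS2* (adjusted p = 0.000448), 3.08 for *ALOXE3* (adjusted p = 0.0027) and 1.94 for *PLA2G4C* (adjusted p = 0.0365). It was 0.93 for *DAGLB* (adjusted p = 0.00301), −0.74 for *AKR1C3* (adjusted p = 0.00141) and −0.61 for *CBR1* (adjusted p = 0.032). For *PTGS2* the log2 fold change with *ADAR* KO was −1.18 with vehicle (adjusted p = 0.998) and 1.93 with IFN-β. Its difference thus includes a fall with vehicle that was not called. The *PLA2G4C* difference was lost when any of 6 of the 8 libraries was left out (1.45 to 2.17, adjusted p of 0.0616 to 0.369), in the fit of all 20 libraries (adjusted p = 0.0808) and in DESeq2 without independent filtering (adjusted p = 0.193). The *DAGLB* difference was lost in the fit of all 20 libraries (adjusted p = 0.0946) and without *GFP* vehicle sg2 (0.85, adjusted p = 0.05) or *ADAR* IFN-β sg2 (0.77, adjusted p = 0.0738). The *CBR1* difference was lost without *GFP* vehicle sg1 (−0.54, 0.152) or sg2 (−0.68, 0.0933), *GFP* IFN-β sg2 (−0.52, 0.0759), *ADAR* vehicle sg1 (−0.50, 0.221) or sg2 (−0.71, 0.0504), or *ADAR* IFN-β sg2 (−0.53, 0.247). *AKR1C3* kept its call with each library left out and lost it in the fit of all 20 libraries (−0.78, adjusted p = 0.176).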

How the results depend on the processing

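The number of members called moved by over 1.5 times in 4 comparisons. In NCI-H196 it was 2, and 0 with DESeq2, with DESeq2 without independent filtering (chosen after seeing the data), in the fit of all 20 libraries and with the sgRNA number as replicate block, and 0 to 2 with each library left out. For IFN-β in *GFP* cells it was 1, 0 in the fit of all 20 libraries, and 0 to 1 with each library left out. In HCC366 it ranged from 0 to 4 with each library left out. Control levels were called for 5 members by the DESeq2 likelihood ratio test and 7 in the 8 control libraries alone. Smaller moves were 2 to 4 of a main count of 3 for *ADAR* KO in A549 with IFN-β and for the interaction, each with a library left out, and 4 (fit of all 20) to 6 (without *ADAR* vehicle sg2) of a main count of 5 for IFN-β in *ADAR* cells. DESeq2 with its filtering gave the interaction an adjusted p for 4 members, without *PTGS2*, *ALOXE3* and *PLA2G4C*, and called 0 of them, and without that filtering it called 2. In NCI-H196, with each library left out, *AKR1C3* ranged from −0.76 to 0.0091 and *GGT5* from −0.51 to 1.60, both turning direction without *GFP* sg1. The number of all genes called moved in HCC366 from 139 to 310 with DESeq2, 903 with no filter on low counts, 3701 in the fit of all 20, 300 with the replicate block, 1037 with GC and length offsets and 9 to 6408 with each library left out. Crossing the sgRNA numbers there, chosen after seeing the data, gave 960. In NCI-H196 it moved from 2513 to 11 with DESeq2 (4 without independent filtering), 1552 with no filter, 98 in the fit of all 20, 115 with the block and 41 to 3041 with each library left out. In NCI-H1650 it moved from 1250 to 401 with DESeq2 and 159 in the fit of all 20. In A549 the fit of all 20 gave 5 against 19 (vehicle), 1087 against 2622 (IFN-β), 531 against 880 (IFN-β in *GFP* cells), 2067 against 3788 (IFN-β in *ADAR* cells) and 164 against 780 (interaction). There DESeq2 gave 4 and the fit with no filter 30 (vehicle), and DESeq2 without independent filtering gave 1591 (IFN-β) and 455 (interaction). With each library left out, A549 counts were 3 to 22 (vehicle), 689 to 3581 (IFN-β), 517 to 1245 and 1774 to 4568 (IFN-β in *GFP* and *ADAR* cells) and 253 to 1663 (interaction), and NCI-H1650 counts 542 to 1110. The control levels gave 7943 genes against 15739 with DESeq2. Causes were not tested. The replicate block changed no call of a member outside NCI-H196, where *PTGS2* had 0.79 (adjusted p = 0.0600) and *PLA2G4C* 0.81 (adjusted p = 0.829). Depth limits NCI-H196, where 1 control library is shallow, and every member with few reads.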
